A study of Oryza sativa with 6 samples.

Results

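Expansins, an XTH gene, endo-glucanases and cellulose synthase-like (CSL) genes were followed in detached rice leaves kept in darkness with or without cytokinin. All belong to gene families of the plant cell wall. A gene was included if one of its names in the reference was EXPA, EXPB, EXLA, EXLB, XTH or GLU followed by a number, or CSL followed by a letter and a number, and if at least 1 probe set of the array listed it alone. Cellulose synthases (CESA) were not included. The reference gives such a name to 88 genes, and 61 of them could be read, out of 17905 genes with a probe set of their own. These were 14 α-expansins (EXPA), 11 β-expansins (EXPB), 4 expansin-like genes (EXLA), 1 xyloglucan endotransglucosylase/hydrolase (XTH8), 11 endo-glucanases (GLU) and 20 CSL genes. The other 27 genes, among them 15 EXPA, 4 EXPB, EXLB1, GLU3 and 6 CSL genes, had no probe set listing them alone and were not analysed here.

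The 6 arrays came from the third leaf of 30-day-old plants of N22 (Nagina22), a rice cultivar. The detached leaves of 3 replicates were kept in a solution holding 2 mg/ml BA (6-benzyl adenine), a cytokinin made by synthesis, with NaOH and Tween20, and those of the other 3, here called untreated, were kept in NaOH and Tween20 alone. Both groups were kept in darkness, which starts dark-induced senescence (DIS), and each replicate was made from 5 g of leaf. The extraction protocol gives 72 h of darkness, as does the study, whereas 1 sample field gives 2 h. The study calls the replicates biological. The arrays hold only this time point, with no leaf taken before DIS, so a transcript raised by BA and a transcript lost from untreated leaves cannot be told apart. The leaf is a mixture of cell types, and fewer cells of a type and less RNA per cell cannot be told apart either.

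The primary wall of a growing plant cell is a mesh of cellulose held in a matrix of other polysaccharides. Expansins loosen this mesh without cutting it, XTH enzymes cut and rejoin xyloglucan, and endo-glucanases of the GLU family cut β-1,4-glucan chains. Several CSL families make matrix chains. CSLA members make mannans, and CSLC members were shown in Arabidopsis to make the xyloglucan backbone. CSLF and CSLH members make the mixed-linkage β-glucan that is typical of grasses. These families are best known from tissues that grow, whereas the leaves measured here were detached and ageing.

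Each array gave 1 signal per probe set on a linear scale that holds a constant of 16, the lowest signal on every array, with array medians of 22.5 to 23.3. A gene was read from its probe set with the highest mean signal. Signals were taken as log2(signal + 1) and tested with limma, and p-values were adjusted (Benjamini-Hochberg) over all 57258 rice probe sets. A fold change is on this scale, so that any change of a gene near the constant would be understated. Of the 61 genes, 30 stayed below a signal of 32 on all 6 arrays, which is close to the constant, and 31 passed it on at least 1 array. Of all 17905 genes, 4453 stayed below it, a smaller share. Untreated replicate 3 had a 28S rRNA control signal of 346 against 28.3 to 47.1 on the other arrays. BA replicates 2 and 3 lay close together: over the 61 genes their log2 signals differed with an SD of 0.167, against 0.433 to 0.772 for the other pairs of arrays. Of the leaf markers, all 6 genes (CAB2R, petC, Fd-GOGAT, RCA, RBCS and RBCS1) passed 32, and their summed signal was 2417 to 2825 on BA-treated arrays and 1449, on untreated replicate 3, to 2749 on untreated ones. The sum followed CAB2R, its brightest gene, which was 1928, 2126 and 582 on untreated replicates 1 to 3. Among untreated arrays petC (209) and RCA (303) were highest on replicate 3, and Fd-GOGAT (124) was lowest there. Of these 6 genes, 5 lay higher with BA (median log2 change 0.79, 1 with an adjusted p under 0.05), and their part in the values of the wall genes was not tested. Of 8 endosperm storage protein genes 6 stayed below 32 on all arrays, GLUA2 and GLB1 being the exceptions, and so did C6, a gene of anthers.

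Of the 61 genes, 39 lay lower in BA-treated than in untreated leaves and 22 lay higher. Their median log2 change was -0.061, against -0.0035 over all genes read in the same way. Only GLU2 passed the test at an adjusted p under 0.05, which it did as a lower gene, and at this threshold limma called 0.290% of all genes (0.134% lower and 0.156% higher) and 0.159% of all probe sets. At an unadjusted p under 0.05, 11 of the 61 (18%) were lower, against 7.84% of all genes, and 3 (4.92%) were higher, against 6.42%. The 3 BA-treated arrays all lay below the 3 untreated arrays for 12 of the 61 (19.7%, against 10.1% of all genes) and above them for 3 (4.92%, against 7.61%). The lower genes at an unadjusted p under 0.05 were XTH8, GLU2, CSLC2, CSLC7, CSLC9, CSLD2, CSLF6, CSLH1, EXPA1, EXPA6 and EXPA8, and the higher ones were EXLA1, EXPA26 and GLU6. With a fold over 1.5 required as well, 7 genes were lower (against 4.74% of all genes) and 2 were higher (against 3.18%). Without untreated replicate 3 the numbers at an unadjusted p under 0.05 were 13 lower and 3 higher. Of all rice probe sets, 5.48% were then lower and 4.71% higher. With all 6 arrays these shares were 4.25% and 4.24%. They are on another base than the shares of all genes above and are not to be set against those. Without BA replicate 1 the numbers were 7 and 1, against 3.44% and 5.94% of all rice probe sets. With BA replicates 2 and 3 averaged as 1 sample they were 8 and 2, against 2.75% and 2.65%.

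**Figure D1:**
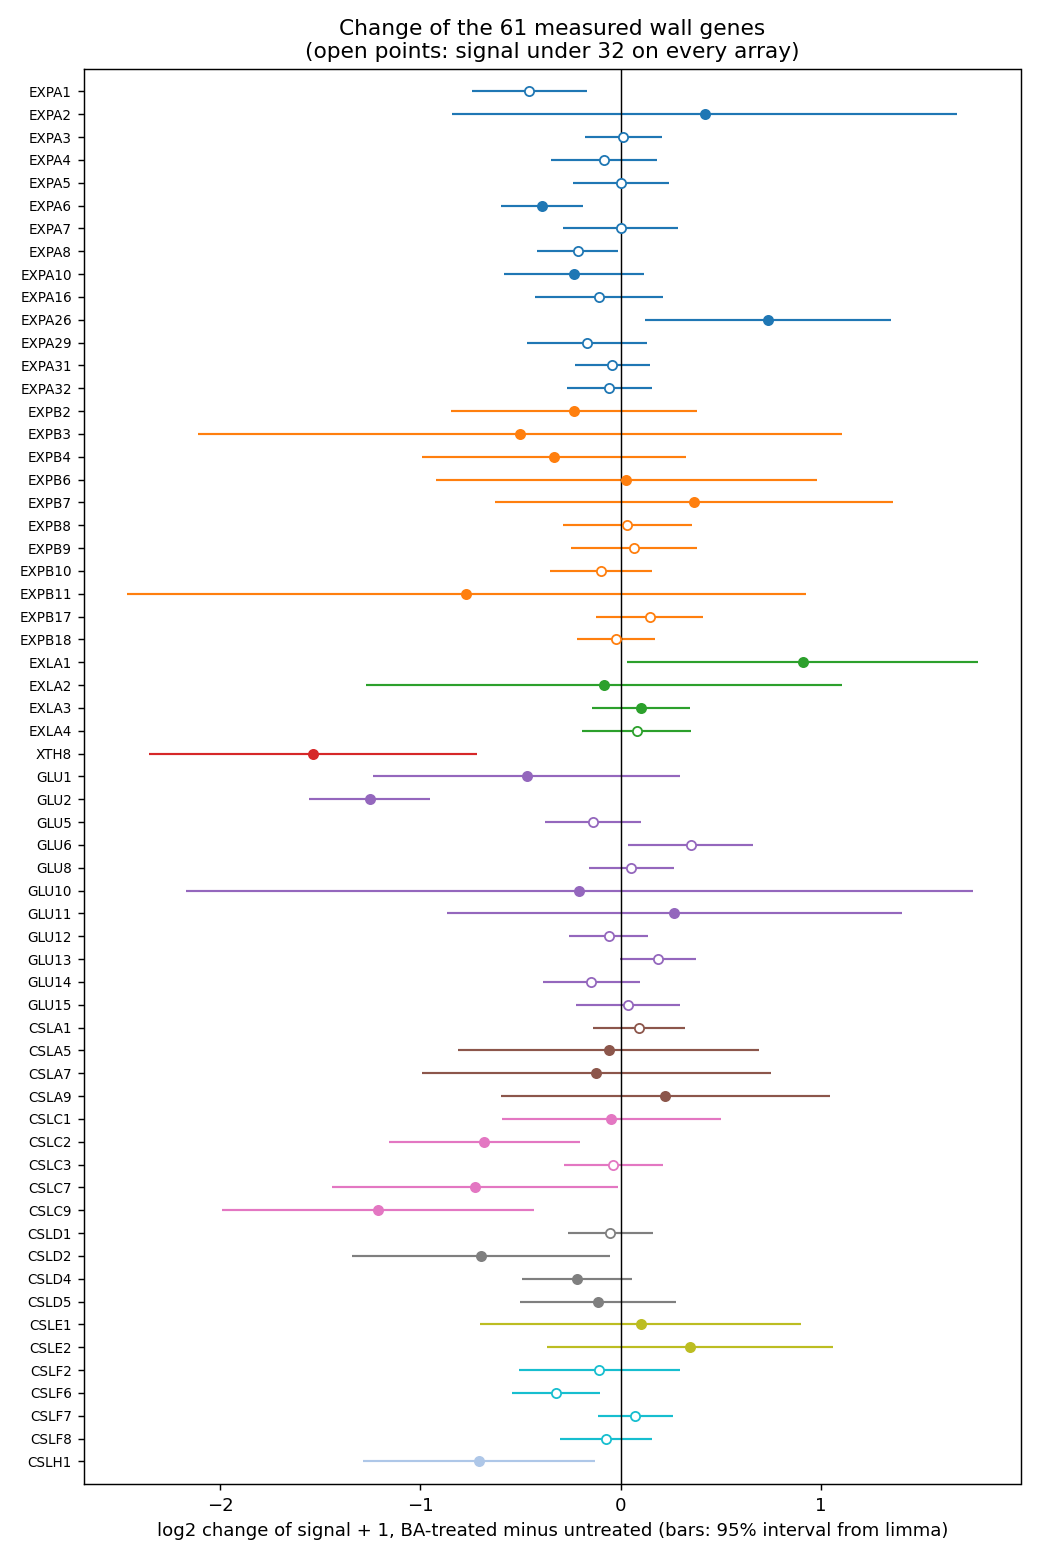
Log2 change of signal + 1 (x axis, BA-treated minus untreated leaves, 3 arrays each) for the 61 genes, coloured by family, with 95% intervals from limma as bars; open points mark the 30 genes with a signal under 32 on every array. XTH8, GLU2 and CSLC9 lay farthest to the left, EXLA1 and EXPA26 farthest to the right, and most expansins lay near 0.

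XTH8 had the largest difference of the 61 genes. Its enzyme family remodels the xyloglucan tethers between cellulose fibres. The signal was 314, 164 and 175 on BA replicates 1 to 3 and 838, 439 and 603 on untreated replicates 1 to 3. Every BA-treated array therefore lay below every untreated array, with BA replicate 1 nearest to the untreated leaves. The means were 217 ± 83.5 with BA and 627 ± 200.4 without (SD, n = 3 arrays each). The log2 change was -1.54 (limma, standard error 0.33, 95% interval -2.36 to -0.72, adjusted p = 0.22), or 2.9-fold lower with BA, and it did not pass the test. Over 16 alternative settings the log2 change of XTH8 ran from -1.83 to -1.30 and its adjusted p from 0.077 to 0.82, with an unadjusted p under 0.05 in all 16. Some of these settings cannot change the log2 change of a gene with 1 probe set such as XTH8. XTH8 was the only gene of its family that the naming rule found, and the rest of that family was not analysed here.

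Of the 11 endo-glucanase genes, 6 lay lower with BA and 5 higher, with a median log2 change of -0.059. These enzymes trim or open glucan chains, and rice GLU1 is known for its part in stem elongation. GLU2 was lower in BA-treated than in untreated leaves. Its signal was 54.4, 62.3 and 50.2 on BA replicates 1 to 3 and 133, 120 and 149 on untreated replicates 1 to 3. The groups were far apart and each was tight, with a mean of 55.6 ± 6.15 in BA-treated and 134 ± 14.8 in untreated leaves (SD, n = 3 arrays per group). The log2 change was -1.25 (limma, standard error 0.12, 95% interval -1.55 to -0.95, adjusted p = 0.043), or 2.38-fold lower. Leaving out any 1 of the 6 arrays kept the log2 change of GLU2 between -1.34 and -1.17 but gave an adjusted p between 0.058 and 0.32, so the call was lost each time. It was also lost with offset 16 in the logarithm (limma, adjusted p = 0.053).

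GLU6 was the endo-glucanase gene with an unadjusted p under 0.05 in the upward direction. Its signal was 28.4, 23.3 and 22.9 with BA and 17.8, 22.1 and 18.2 without, all near the constant. The groups did not overlap, but untreated replicate 2 and BA replicate 3 were less than 1 unit apart. The log2 change of GLU6 was 0.35 (limma, standard error 0.13, adjusted p = 0.53). GLU1 had signals of 114, 89 and 69.5 with BA and 176, 129 and 83 without, and the groups overlapped (log2 change -0.47, adjusted p = 0.82). GLU10 varied most within its groups, at 119, 38.6 and 40 with BA and 110, 124 and 20.4 without, low on untreated replicate 3 and high on BA replicate 1. Its log2 change was -0.21, with a 95% interval of -2.17 to 1.76 that allows a large difference either way. GLU11 had its highest and its lowest signal in the untreated group, at 116 on replicate 2 and 32.3 on replicate 3, with 56, 77.1 and 70.2 with BA. The other 6 genes of the family (GLU5, GLU8, GLU12, GLU13, GLU14 and GLU15) stayed below 32 on all arrays, with log2 changes from -0.15 for GLU14 to 0.19 for GLU13, both without overlap between the groups.

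Of the 20 CSL genes, 15 lay lower with BA and 5 higher, with a median log2 change of -0.091. None passed the test over all probe sets, and at an unadjusted p under 0.05 there were 6 lower (30%, against 7.84% of all genes) and 0 higher (against 6.42%). In 6 of the 20 (30%, against 10.1% of all genes) all BA-treated arrays lay below all untreated arrays, and in 0 (against 7.61%) above them. BA replicate 1 was the lowest of the 6 arrays in 8 of the 20 (40%), against 28.9% of all genes. BA replicate 3 was the lowest in 6 (30%), against 8.98%, and BA replicate 2 in 0, against 7.68%.

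The CSLC genes, whose relatives in Arabidopsis build the xyloglucan backbone, all lay lower with BA, with a median log2 change of -0.68 over 5 genes. The CSLC9 signal was 35.9, 27.2 and 25.4 with BA and 85.5, 90.7 and 42.1 without. Untreated replicate 3 was well below the other untreated arrays and still lay above all BA-treated ones. The log2 change of CSLC9 was -1.21 (limma, standard error 0.32, 95% interval -1.99 to -0.43, adjusted p = 0.32), and without untreated replicate 3 it was -1.56 (adjusted p = 0.075). CSLC2 had signals of 31.3, 45 and 38.4 with BA and 71.3, 48.5 and 66.5 without, a log2 change of -0.68 (limma, standard error 0.19, adjusted p = 0.37). Its groups were separate, though BA replicate 2 came close to untreated replicate 2. For CSLC7 the signals were 22.4, 22.3 and 21.1 with BA and 27.5, 60.1 and 30.3 without, a log2 change of -0.73 (adjusted p = 0.58). That size rested on untreated replicate 2, since without it the log2 change of CSLC7 was -0.38. The other CSLC genes differed little, at log2 changes of -0.048 for CSLC1 and -0.038 for CSLC3, of which CSLC3 stayed near the constant. The CSLC1 groups overlapped, with 89, 108 and 104 with BA and 146, 88.8 and 85.3 without.

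The CSLD genes are known from cells with tip growth, such as root hairs, and from leaf shape in rice, and all 4 lay lower with BA (median log2 change -0.17). CSLD2 had signals of 102, 133 and 116 with BA and 185, 273 and 135 without, a log2 change of -0.70 (limma, standard error 0.26, adjusted p = 0.54). Its groups did not overlap, but BA replicate 2 and untreated replicate 3 were less than 2 units apart, and without untreated replicate 2 the log2 change of CSLD2 was -0.44. CSLD4 was also separate between the groups, at 23.6 to 28.1 with BA and 28.3 to 34.4 without (log2 change -0.22, adjusted p = 0.72). The groups overlapped for CSLD1, which stayed near the constant (log2 change -0.052), and for CSLD5, at 29.6 to 32.3 with BA and 28.6 to 42.8 without (log2 change -0.11).

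Among the genes of mixed-linkage glucan, CSLH1 had signals of 133, 203 and 171 with BA and 300, 203 and 332 without. BA replicate 2 and untreated replicate 2 were nearly equal, with the BA-treated array a little higher, so that the groups overlapped. The log2 change of CSLH1 was -0.71 (limma, standard error 0.24, 95% interval -1.29 to -0.13, adjusted p = 0.47). CSLF6, which makes most of this glucan in rice, was near the constant in its brightest probe set, at 18.7, 18.6 and 18.4 with BA and 24.1, 25.4 and 21.2 without. These groups did not overlap (log2 change -0.32, adjusted p = 0.35), but the other 2 probe sets of CSLF6 had log2 changes of 0.10 and -0.044 with overlapping groups. With the mean of its 3 probe sets the log2 change of CSLF6 was -0.088. CSLF2, CSLF7 and CSLF8 stayed below 32 on all arrays, at log2 changes of -0.11, 0.072 and -0.075.

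For all CSLA and CSLE genes the groups overlapped. Of the 4 mannan synthase genes CSLA1, CSLA5, CSLA7 and CSLA9, 2 lay higher and 2 lower, with log2 changes from -0.12 to 0.22. The reference also gives the name CSLA9 to the gene called CSLA1 here (on chromosome 2), and CSLA9 here is the gene on chromosome 6 that has only this name of the family. CSLA5 had signals of 43.2, 87.7 and 95.6 with BA and 66.4, 78.3 and 79.6 without, low on BA replicate 1 only. CSLA7 had 50, 74.1 and 70.7 with BA and 82, 40.9 and 101 without, and CSLA9 had 39, 18.9 and 23.8 with BA and 32.3, 17 and 19.9 without, replicate 1 being the highest array of each group for CSLA9. The role of CSLE proteins is less clear. CSLE1 had signals of 204, 372 and 341 with BA and 411, 229 and 225 without, which gives a log2 change of 0.098 (limma, adjusted p = 0.97). CSLE2 had 92.1, 195 and 166 with BA and 104, 105 and 133 without, for a log2 change of 0.35 (limma, adjusted p = 0.87). For both of these and for CSLA5, BA replicate 1 was the lowest of the 6 arrays, and BA replicates 2 and 3 lay above untreated replicates 2 and 3. All 3 probe sets of CSLE2 had a log2 change above 0, from 0.20 to 0.37.

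**Figure D2:**
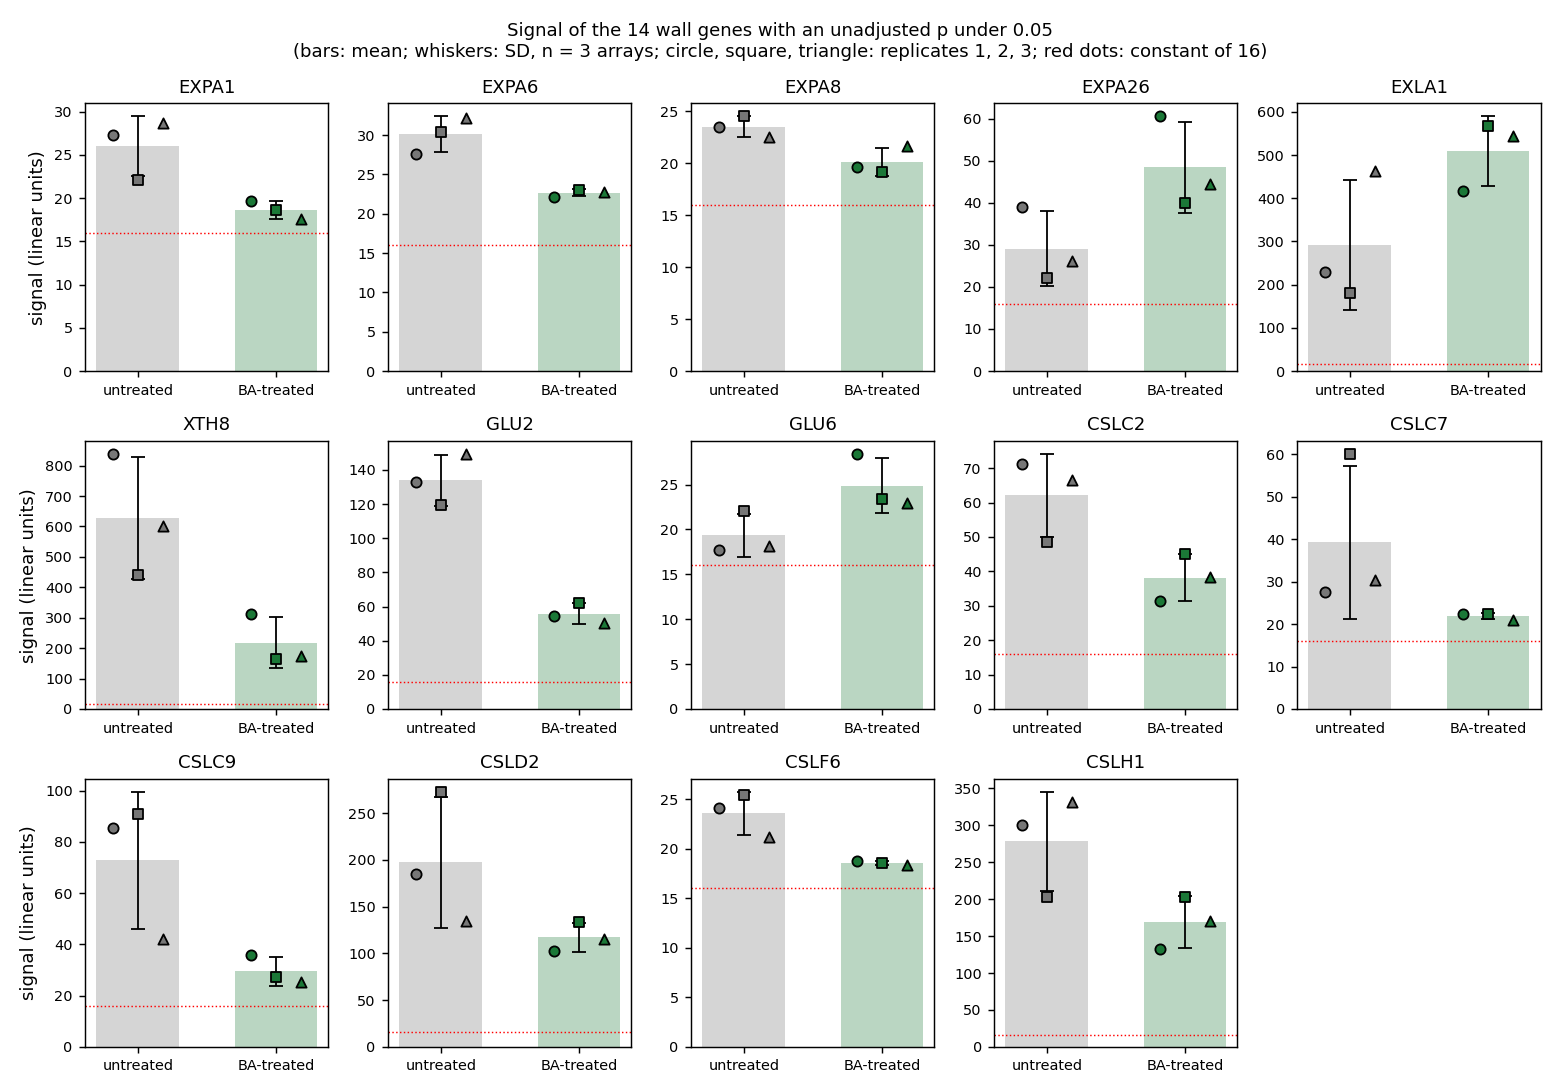
Signal in linear units (y axis, from 0) on each array for the 14 genes with an unadjusted p under 0.05, with group means as bars and SD as whiskers (n = 3 arrays); circles, squares and triangles are replicates 1, 2 and 3, and the dotted line is the constant of 16. In GLU2 the groups stand far apart (50.2 to 62.3 with BA, 120 to 149 without), whereas CSLH1 and EXLA1 have 1 array of each group that meet or cross.

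Of the 29 expansin and expansin-like genes, 25 differed by less than 0.5 on the log2 scale, as did 14940 of all 17905 genes. Of the 29, 17 lay lower with BA and 12 higher, with a median log2 change of -0.042. On all arrays 16 stayed below 32, a larger share than the 4453 of all 17905 genes, which limits how far they compare. None passed the test over all probe sets, and at an unadjusted p under 0.05 there were 3 lower (10.3%, against 7.84% of all genes) and 2 higher (6.90%, against 6.42%), both near the shares over all genes.

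The α-expansins, which loosen the walls of growing cells at acid pH, were mostly near the constant, with 10 of 14 below 32 on all arrays. EXPA6 had signals of 22.2, 23 and 22.8 with BA and 27.6, 30.4 and 32.2 without, so that the groups were separate and tight. Its log2 change was -0.39 (limma, standard error 0.083, adjusted p = 0.22), with a range from -0.45 to -0.25 over 16 alternative settings and an unadjusted p under 0.05 in all of them. As for XTH8, some of these settings cannot change the log2 change. EXPA1 had signals of 19.6, 18.6 and 17.5 with BA and 27.3, 22.1 and 28.6 without, again with no overlap (log2 change -0.46, standard error 0.12, adjusted p = 0.31). EXPA8 likewise did not overlap, at 19.2 to 21.6 with BA and 22.5 to 24.5 without. EXPA1 and EXPA8 stayed below 32 on all arrays and EXPA6 passed it on untreated replicate 3 only. At such signals any difference in transcript would be understated, and none of these genes passed the test.

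EXPA26 went the other way. Its signal was 60.6, 40.1 and 44.6 with BA and 39.1, 22.1 and 26.1 without, a log2 change of 0.73 (limma, standard error 0.25, 95% interval 0.12 to 1.35, adjusted p = 0.49). Replicate 1 was the highest array of each group, and BA replicate 2 was only about 1 unit above untreated replicate 1. EXPA2 had signals of 73.5, 55.3 and 55.7 with BA and 22.7, 40.7 and 100 without, the untreated leaves being both the lowest and the highest. Without untreated replicate 3 the log2 change of EXPA2 was 0.98 and without untreated replicate 1 it was -0.066, against 0.42 over all arrays (adjusted p = 0.91). EXPA10 had signals of 52.5, 64.5 and 54.4 with BA and 77.7, 67.7 and 57.3 without (log2 change -0.23, adjusted p = 0.80). The other α-expansin genes had log2 changes between -0.17 and 0.013.

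Of the expansin-like genes, whose action on the wall has not been settled, EXLA1 had the largest upward log2 change of all 61 genes. The signal was 417, 567 and 544 with BA and 230, 182 and 464 without, so that untreated replicate 3 lay above BA replicate 1 and the groups overlapped. The means were 509 ± 80.9 with BA and 292 ± 151 without (SD, n = 3 each), with a log2 change of 0.91 (limma, standard error 0.36, 95% interval 0.033 to 1.78, adjusted p = 0.57). Without untreated replicate 3 the log2 change of EXLA1 was 1.30 (adjusted p = 0.12), and without untreated replicate 2 it was 0.63 (adjusted p = 0.72). Its unadjusted p was above 0.05 when any 1 array other than untreated replicate 3 was left out. The groups also overlapped for EXLA2 (log2 change -0.084), at 238, 126 and 126 with BA and 151, 316 and 94.9 without, and its second probe set had the same order of arrays. EXLA3 and EXLA4 had log2 changes of 0.099 and 0.081.

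Of the 11 β-expansin genes, 0 had an unadjusted p under 0.05 (against 7.84% of all genes lower and 6.42% higher), and in 0 were the groups separate (against 10.1% lower and 7.61% higher), shares at which few of 11 genes would be counted. β-expansins are numerous in grasses and include the group that pollen releases as allergens. Here their extremes often fell on untreated arrays: untreated replicate 3 was the highest of the 6 arrays in 6 of 11 genes, against 24.8% of all genes, and untreated replicate 1 was the lowest in 6 of 11, against 19.4%. EXPB11 had signals of 22.7, 17.3 and 17.3 with BA and 18.9, 17.4 and 107 without, so that only untreated replicate 3 was clearly above the constant. Its log2 change of -0.77 (adjusted p = 0.88) became 0.059 without that array. EXPB3 was high on the same array, with 112, 63.6 and 58.9 with BA and 46.6, 93.2 and 278 without. The log2 change of EXPB3 was -0.50 (adjusted p = 0.92) and without untreated replicate 3 it was 0.18. EXPB7 ran from 21.6 on untreated replicate 1 to 70.4 on untreated replicate 3, around BA-treated signals of 54.8, 52.1 and 54.2. The other 8 β-expansin genes had log2 changes from -0.33 for EXPB4 to 0.14 for EXPB17, and 5 of them stayed below 32 on all arrays. The part of the 28S rRNA signal, which was also high on untreated replicate 3, in these values was not tested.

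Several β-expansin genes lie side by side in the genome (rice assembly ASM3414082v1), and neighbours did not all have the same order of arrays. EXPB6, EXPB2, EXPB3 and EXPB4 are consecutive genes on chromosome 10. EXPB4, like EXPB3, was highest on untreated replicate 3 (38.8), whereas EXPB2 and EXPB6 were highest on untreated replicate 2 (33.4 and 57). EXPB8 and EXPB7, adjacent on chromosome 3, were both highest on untreated replicate 3 and lowest on untreated replicate 1. Genes with similar sequences can share probes, and the probe sets of EXPB4, CSLC7, CSLD4, EXLA2 and GLU15 are of classes that the array design marks as open to cross-hybridization. On chromosome 7 CSLF8 and CSLF2 are neighbours, both near the constant.

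**Figure D3:**
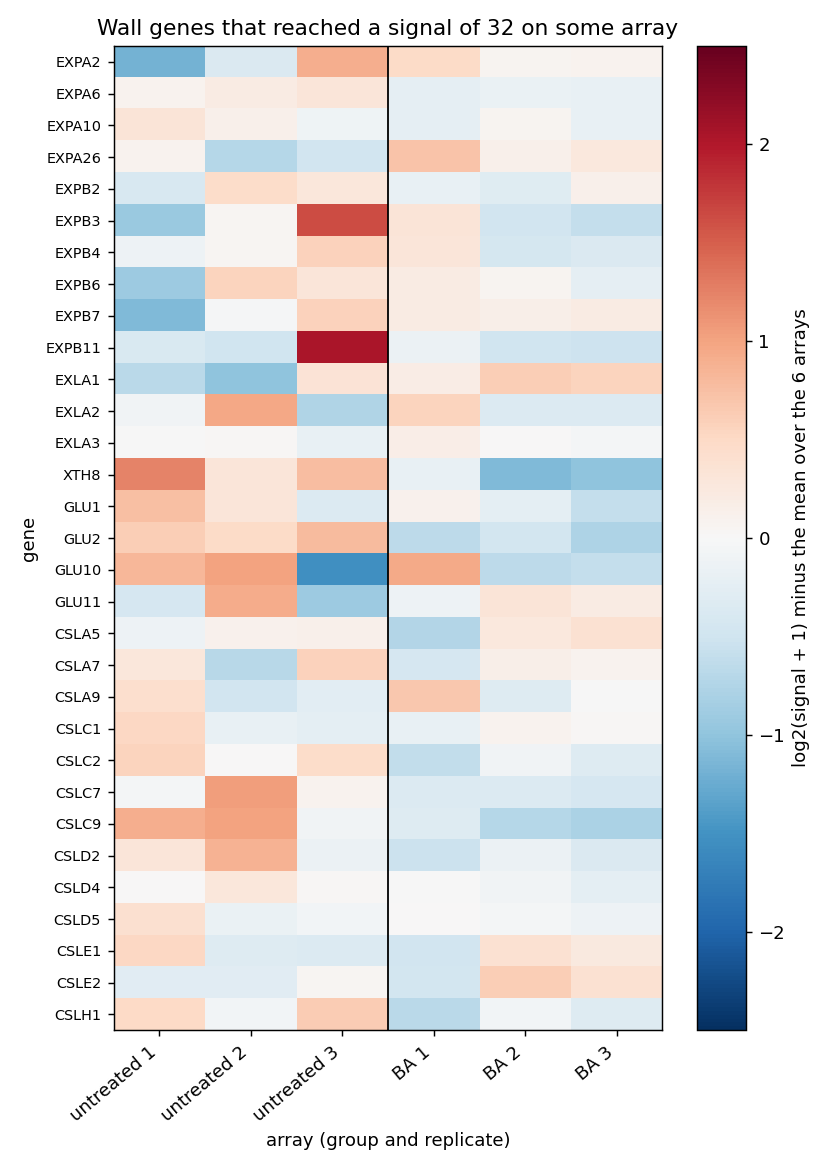
Log2(signal + 1) minus the mean over the 6 arrays (colour) for the 31 genes that reached a signal of 32 on at least 1 array (rows), by array (columns, untreated on the left and BA-treated on the right of the line). XTH8, GLU2, CSLC2 and CSLC9 are mostly red on the left and blue on the right. CSLC2 is pale on untreated replicate 2 and CSLC9 on untreated replicate 3. CSLC7 is clearly red on untreated replicate 2 only, where its signal was 60.1. EXPB3 and EXPB11 are red on untreated replicate 3, where their signals were 278 and 107.

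The untreated arrays varied more than the BA-treated arrays for most of the genes. The SD of log2 signal was larger in the untreated group for 45 of the 61 genes (73.8%), against 62.7% of all genes. BA replicates 2 and 3 were the close pair, so the BA-treated spread rests largely on BA replicate 1.

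Another 25 wall genes, chosen by name, were not all genes of wall synthesis, PGIP-1, PMEI8 and PMEI28 being among them. Of these 25 genes, 20 lay lower with BA and 5 higher, with a median log2 change of -0.31. None had an adjusted p under 0.05 (0 by limma), and at an unadjusted p under 0.05 there were 6 lower (24%, against 7.84% of all genes) and 1 higher (4%, against 6.42%). PGIP-1 was among the 6 lower genes. IRX9L, of the family that extends the xylan backbone, had signals of 114, 124 and 112 with BA and 173, 160 and 163 without, a log2 change of -0.50 (limma, standard error 0.079, adjusted p = 0.12). UGE-2, an epimerase that supplies UDP-galactose, had 86.3, 95.8 and 80.1 with BA and 137, 134 and 118 without, a log2 change of -0.56 (adjusted p = 0.16). Neither gene overlapped between the groups. UGD5, a UDP-glucose dehydrogenase on the way to xylan and pectin precursors, was the 1 higher gene, at 228, 286 and 279 with BA and 230, 176 and 180 without (log2 change 0.44, adjusted p = 0.47). All 9 cellulose synthase genes lay lower with BA, with log2 changes from -1.73 to -0.069 and a median of -0.78. Of these, 6 were lower at an unadjusted p under 0.05 (66.7%, against 7.84% of all genes), and the lowest adjusted p was 0.059 by limma.

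**Figure D4:**
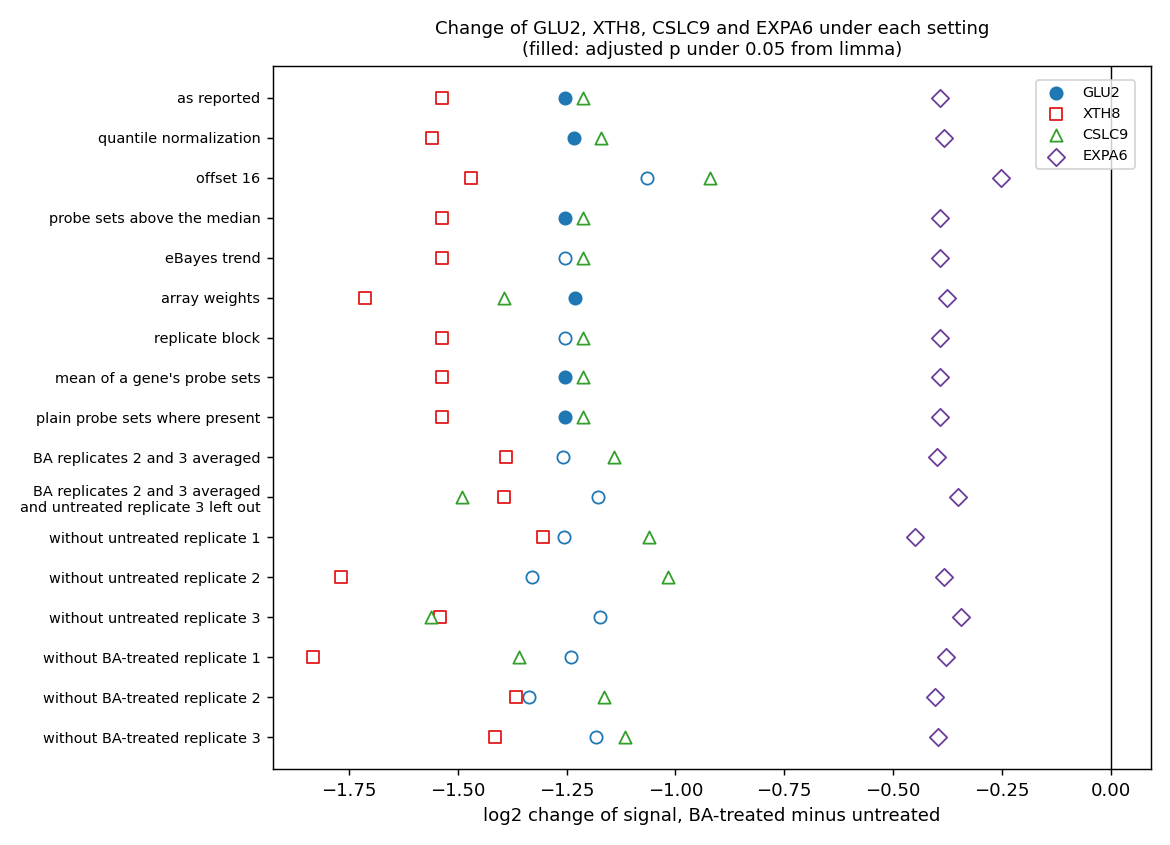
Log2 change of signal (x axis, BA-treated minus untreated) of GLU2, XTH8, CSLC9 and EXPA6 as reported and under 16 alternative settings (y axis); filled points have an adjusted p under 0.05 from limma. All points lie left of 0, GLU2 between -1.34 and -1.06 and XTH8 between -1.83 and -1.30, and only GLU2 has filled points.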

How the data were processed

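RNA was labelled as biotinylated cRNA and hybridised to Affymetrix rice arrays. The authors deposited 1 linear intensity per probe set and array, summarised with PLIER and a variance stabilization, per the labels. The submitters' processing notes also name RMA. The sources used here do not give versions, the role of RMA or any scaling from array to array. Probe sets were named through the platform annotation, joined by gene identifier to the rice assembly ASM3414082v1. Of 57381 probe sets, 22436 had 1 gene, 95 had several and 34850 had none in it.

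The deposited values were turned into log2(signal + 1). BA-treated and untreated leaves were then tested with lmFit and eBayes of limma 3.58.1 under R 4.3.3 (two-sided, Benjamini-Hochberg over 57258 rice probe sets, without 123 control probe sets, threshold 0.05). No count model was used. Fold changes are on that scale. The members and lists were chosen with earlier results of these data known. Genes described array by array are those called, up to 2 per family and direction with the smallest p under 0.05, the brightest of each family, all genes of families with fewer than 3, and the 5 largest rises and falls. GLU10, GLU11, EXPA8, EXLA2, EXPB2, EXPB4, EXPB6, CSLA7, CSLA9, CSLD4, CSLD5 and some genes given only by their log2 change lie outside that rule and were added after their values were seen. The fit was also run on simulated data, where it missed most of the changes put in, so a gene that was not called may still differ. Alternatives covered normalization, offset, filter, spread estimate, array weights, replicate number, probe set choice and arrays left out or averaged. Precision is limited by having 3 arrays per group. The p-values set each difference against the spread between these samples, which eBayes moderated over all probe sets. BA replicates 2 and 3, which lay close together, were counted as separate samples in that spread.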

Additional observations from a re-analysis of the deposited data

How the results depend on the processing

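Of 23 genes chosen by that rule, 16 kept their direction under all 16 alternatives for which they gave a value. Not all of these alternatives could turn a direction. The eBayes trend and the replicate block left every log2 change as reported. For a gene with 1 probe set, averaging over its probe sets and plain probe sets did the same. GLU2 was the only gene of the 61 called under any of the 16 alternatives, with 1 called under quantile normalization, array weights, the filter at the median, averaging over the probe sets of a gene and plain probe sets. As GLU2 has 1 probe set, that averaging could not change its log2 change. For GLU2 the setting with plain probe sets repeats the fit as reported. By limma 0 of the 61 were called with offset 16, with eBayes trend, with the replicate block, with BA replicates 2 and 3 averaged, with that averaging and untreated replicate 3 left out (a setting chosen after seeing the data), and without any 1 array (0 to 0). The adjusted p of GLU2 was 0.053, 0.083, 0.12, 0.23 and 0.41 in the first 5 of these settings. Over all probe sets 91 were called as reported, 280 with array weights, 0 with the replicate block, 0 with BA replicates 2 and 3 averaged, 0 with untreated replicate 3 left out as well, and 0 to 142 without 1 array. With the replicate block, an unadjusted p under 0.05 was reached by 3 of the 61 genes upward and by 11 downward. Of all rice probe sets, 5.90% reached it upward and 5.24% downward. Whether the same replicate number pairs the samples could not be told. The correlations of their deviations from the group means were 0.42, -0.013 and 0.42. Untreated replicates 1 and 3 correlated best with their own number and untreated replicate 2 did not. Deviations from means of 3 arrays depend on each other, so these correlations cannot decide it. Without 1 array, 1 to 3 genes reached an unadjusted p under 0.05 upward and 7 to 13 downward, and 18 to 23 did not overlap. The shares of all rice probe sets were 2.72% to 5.94% upward and 2.78% to 5.48% downward. With the averaging and untreated replicate 3 left out 7 were lower (against 3.41% of all rice probe sets) and 28 did not overlap. Fewer samples make separation easier, and the share of all genes without overlap was not counted under the alternatives. As reported, 15 of the 61 did not overlap (24.6%, against 17.7% of all genes). Over the 34 genes above the median signal, with all 6 arrays kept, 9 did not overlap. The median log2 change of these 34 was -0.12, against 0.0094 over all probe sets above the median. Directions turned for 7 genes, all with overlapping groups. Leaving out 1 array gave log2 changes from -0.27 to 0.29 for CSLA5, from -0.18 to 0.20 for CSLC1, from -0.066 to 0.38 for CSLE1, from -0.066 to 0.98 for EXPA2, from -1.21 to 0.059 for EXPB11, from -1.09 to 0.18 for EXPB3 and from -0.091 to 0.74 for EXPB7. Array weights gave 0.19 for CSLA5. The averaging gave -0.035 for CSLE1, and with untreated replicate 3 left out as well it gave -0.18 for CSLE1, 0.12 for EXPB11 and 0.33 for EXPB3. The cause was not tested. Signals near the constant of 16 limit what can be seen for the 30 genes below 32.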
